A study of Mus musculus with 6 samples.

Results

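Mitochondrial ribosomal proteins are named Mrpl for the large subunit and Mrps for the small subunit. The genes described here are the protein-coding genes of the deposited count table with such a name followed by a number, 78 of the 54532 genes listed. A further 5 genes with such names are pseudogenes and were left out. RNA was sequenced from the epididymal white adipose tissue (eWAT) of 3 mice with cachexia and 3 control mice of the C57BL/6 strain. Cachexia, a wasting state, followed subcutaneous inoculation of cells of the mouse lung cancer line LLC (Lewis lung carcinoma), at 5 × 1000000 cells per mouse. The study's methods give male mice aged 6 to 10 weeks, define cachexia by a loss of more than 20% of body weight, and place tissue collection on day 21. The labels call the control mice normal, and no transgene or other treatment is given for any of the 6 mice.

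The mitochondrial ribosome translates the few mRNAs that mitochondrial DNA encodes, all of which specify subunits of the oxidative phosphorylation (OXPHOS) system. Its ribosomal RNAs come from mitochondrial DNA, whereas all of its proteins are encoded in the nucleus, made in the cytosol and imported. Some of these proteins have counterparts in the bacterial ribosome, and others are found in mitochondria alone. In white fat, mitochondria supply energy and intermediates for lipid synthesis and oxidize fatty acids.

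Transcripts of the mitochondrial ribosome did not move in 1 direction. Of the 78 members, 77 had enough counts to be tested, and 9 of them (11.7%) passed the threshold of 0.05 on the adjusted p-value, from edgeR's quasi-likelihood test with Benjamini-Hochberg adjustment over all 16003 tested genes. In the whole tissue, 17.6% of the tested genes passed. Mrpl38, Mrpl30, Mrpl9, Mrps5 and Mrps35 rose in cachectic mice (5 members, where 9.0% of all tested genes rose), and Mrps18b, Mrps22, Mrpl20 and Mrpl55 fell (4 members, where 8.63% of all tested genes fell). The median log2 fold change of cachectic over control mice was -0.02 for the 77 members, with a middle range (25th to 75th percentile) from -0.23 to 0.15. Over all tested genes the median was -0.00 and the middle range ran from -0.39 to 0.36. The p-values measure the spread between 3 mice of each group.

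The changes were small as well as divided. The members' log2 fold changes lay between -0.88 and 0.67, so that none reached 1 in either direction, where 17.4% of all tested genes did. The log2 fold change was under 0.5 in size for 85.7% of the members, against 60.1% of all tested genes. For 73 of the 77 members (94.8%) the whole 95% interval of the log2 fold change lay within 1 of zero, against 51.8% of all tested genes. Small changes were not particular to the family. For nuclear-encoded OXPHOS subunits these 2 shares were 83.1% and 86.7%, whereas for cytosolic ribosomal proteins they were 29.3% and 36.6%. The median SE was 0.152 for the members and 0.223 over all tested genes, so the members were also measured with less spread. The CPM (counts per 1000000 of the normalized library) of the 2 groups did not overlap for 35 of the 77 members, against 40.5% of all tested genes.

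**Figure D1:**
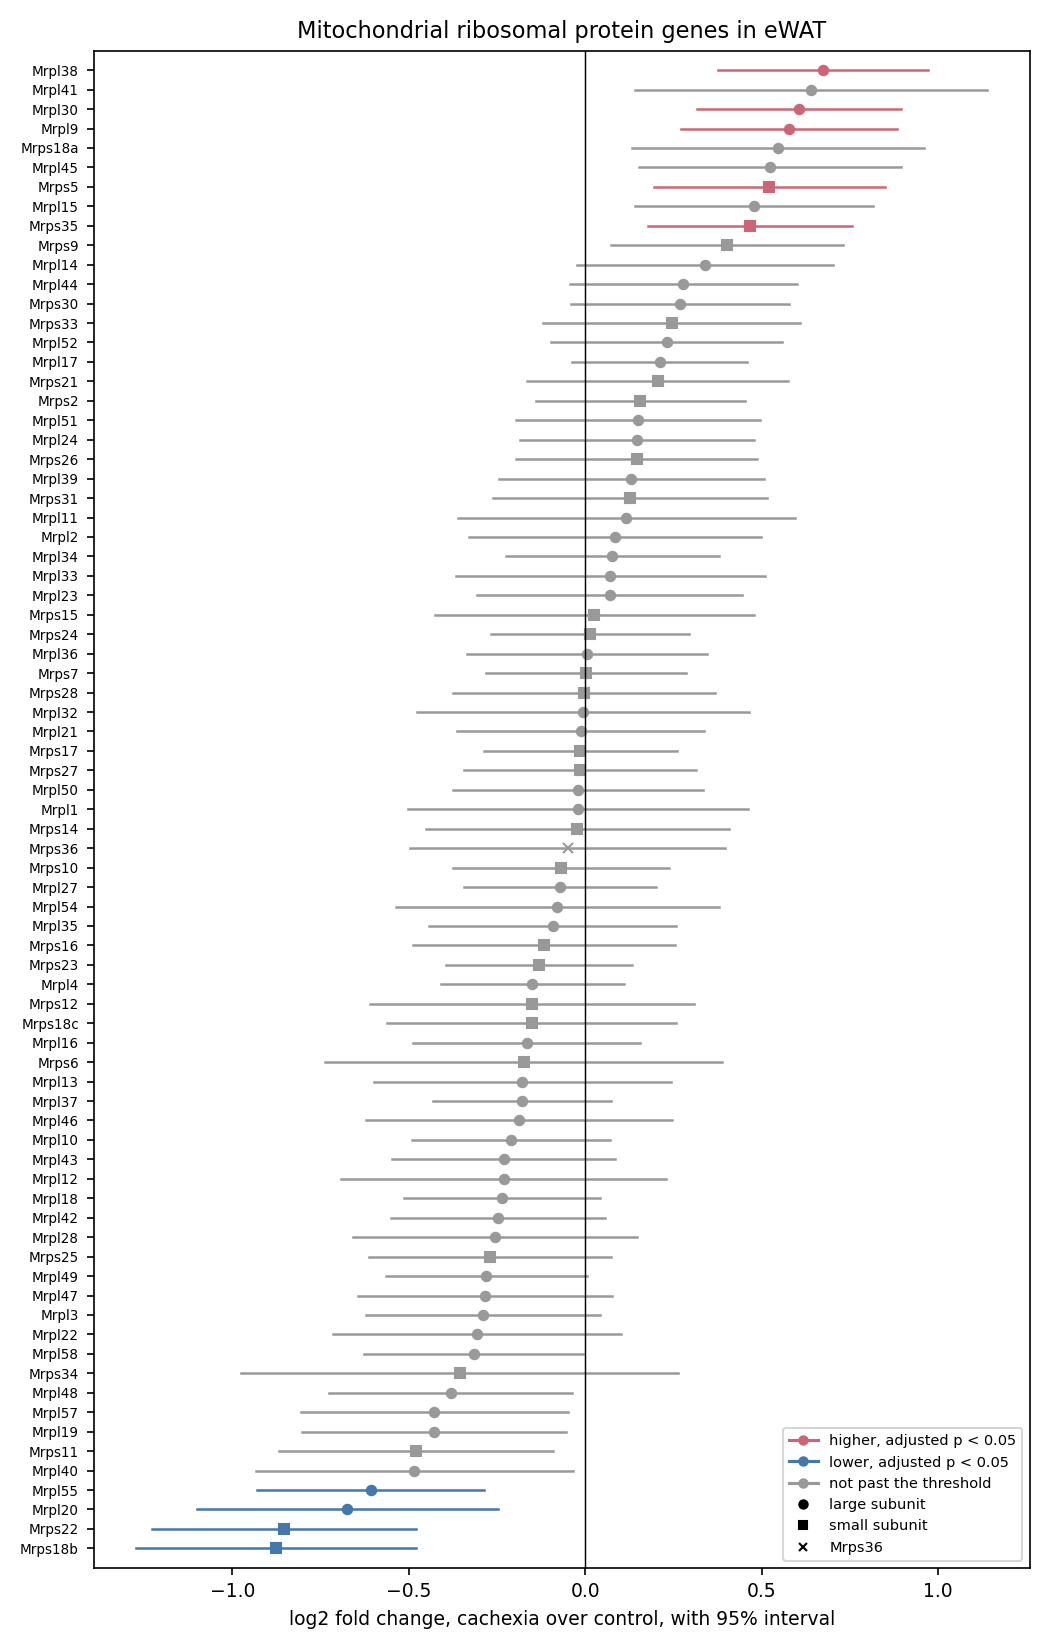
Log2 fold change of cachectic over control mice for each of the 77 tested mitochondrial ribosomal protein genes, with its 95% interval as a line, circles for the large subunit, squares for the small subunit and a cross for Mrps36. The 5 members in red and the 4 in blue passed the threshold, and the values run from -0.88 (Mrps18b) to 0.67 (Mrpl38) with most intervals crossing 0.

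The tissue and the libraries were as follows. The total count was between 14928766 and 18855546 per mouse, and the biological coefficient of variation over all genes was 0.264. Among 9 adipocyte markers, Cidec rose, Lep fell and 7 did not pass the threshold, and their summed CPM was 24970 to 31877 in control and 26258 to 40347 in cachectic mice. All 6 neutrophil markers rose (summed CPM 27.8 to 47.8 against 237 to 612), as did all 6 erythroid markers (252 to 451 against 1333 to 2855) and 3 of 6 endothelial markers (1255 to 1297 against 1736 to 2707). Of 6 macrophage markers 1 fell (1115 to 1431 against 817 to 1237), of 6 progenitor markers 2 fell (3024 to 3233 against 1985 to 2784), and of 5 tested T cell markers 1 fell (6.42 to 11.6 against 3.08 to 5.34). None passed among 5 mesothelial markers (243 to 331 against 131 to 330), 5 B cell markers (7.11 to 12.7 against 3.34 to 7.68) and 2 tested of 5 skeletal muscle markers (23.6 to 39.6 against 6.82 to 58.8), with Myh4 at 0 throughout. The 5 epididymal epithelium markers were too low to test, with summed CPM of 0.97 to 3.71 and 0.55 to 1.34. These shifts in cell markers moved with the group in the same mice as every member change below, and their part in those changes was not tested. In bulk tissue, fewer cells of a type and less RNA per cell cannot be told apart.

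Promoters of the family are shown first because some short motifs, which the choice of genes by name did not use, were in a larger share of its genes than of all genes with a promoter. RefSeq promoter sequences on GRCm38.p6, each from 250 bases before to 50 bases after the start of the gene, were found for 69 of the 78 members. They were searched on both strands for exact letters of 3 motifs. These were CCGGAAG, the core bound by ETS-family factors such as GABP (nuclear respiratory factor 2), CGCATGCG, a core of the site for nuclear respiratory factor 1 (NRF1), and AAGATGGCG, a form of the YY1 site. Some genes, such as Mrpl48 and Mrpl2, have more than 1 promoter, and a gene was counted if any of its promoters held the letters. The ETS letters were found for 26 of the 69 members (37.7%). This compares with 9.93% of all 27025 genes with a promoter and 18.9% of 10701 tested protein-coding genes with one. The NRF1 letters were in 7 (10.1%, against 2.07% and 4.07%) and the YY1 letters in 8 (11.6%, against 1.64% and 3.30%). At least 1 of the 3 was in 36 members (52.2%), against 12.8% and 24.4%. The median GC content was 58.7% in members, 52.7% over all promoters and 60.3% over those of tested protein-coding genes. These matches are letters in a window, not measured binding.

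The promoters of 3 members show the motifs in place before the start as RefSeq gives it, in capitals and 5′ to 3′ along the gene's strand. Mrps22 (chr9:98601680-98601799, minus strand), which fell, holds the ETS letters, and Mrpl9 (chr3:94443216-94443324, plus strand), which rose, holds the NRF1 letters. Mrpl22 (chr11:58171544-58171660, plus strand), chosen after its values were seen because it holds both and did not pass the threshold, is shown beside them.
Mrps22: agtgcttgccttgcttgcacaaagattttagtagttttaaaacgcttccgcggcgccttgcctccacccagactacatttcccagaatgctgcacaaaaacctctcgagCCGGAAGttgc
Mrpl9: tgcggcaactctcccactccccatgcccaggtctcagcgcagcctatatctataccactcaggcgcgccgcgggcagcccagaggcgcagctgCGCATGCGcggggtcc
Mrpl22: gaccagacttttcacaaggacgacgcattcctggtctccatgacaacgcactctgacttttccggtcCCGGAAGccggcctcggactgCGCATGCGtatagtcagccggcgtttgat
Of the 9 members past the threshold, 7 had a promoter in the RefSeq table, and 3 of these held at least 1 motif. Among tested members with a promoter that did not pass, 32 of 61 did (52.5%).

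In the large subunit, counted with Mrps30 and Mrps18a, which structures place there despite their names, 50 of 51 members were tested. Of these 3 rose, 2 fell and 45 did not pass, with a median log2 fold change of -0.05. The share that passed was 10%, against 17.6% of all tested genes. Mrpl38 (chromosome 11, 116131817 to 116138868), a protein found in mitochondria alone, measured 37.7, 38.6 and 34.5 CPM in control and 63.9, 51.6 and 61.2 CPM in cachectic mice, in the order of the replicate numbers here and below. Every cachectic mouse was above every control mouse, and the log2 fold change was 0.67 ± 0.13 (SE, n = 3 per group, edgeR adjusted p = 0.0132). Mrpl30 (chromosome 1, 37890477 to 37898535), the counterpart of a bacterial large-subunit protein, measured 65.5, 68.3 and 64.7 CPM in control and 109, 88.9 and 104 CPM in cachectic mice. The groups were again apart, with the lowest cachectic value in replicate 2 (log2 fold change 0.61 ± 0.12, SE, n = 3 per group, edgeR adjusted p = 0.0170). Mrpl9 (chromosome 3, 94443318 to 94451130), which also has a bacterial counterpart, measured 39.8, 38.9 and 35.9 CPM in control and 57.1, 49.9 and 64.2 CPM in cachectic mice. Its groups did not overlap (0.58 ± 0.13, SE, n = 3 per group, edgeR adjusted p = 0.0238), and 5.8% of its exonic bases are shared with Oaz3 on the other strand. Whether counting used strand is not given in the sources used here, so reads of overlapping genes cannot be told apart.

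Of the large-subunit members that fell, Mrpl20 (chromosome 4, 155802878 to 155809975) is the counterpart of a bacterial protein that binds the large ribosomal RNA early in assembly. It measured 57.6, 59.1 and 75.6 CPM in control and 44.2, 31.1 and 45.2 CPM in cachectic mice. The cachectic mice were all lower, and the spread within both groups was wide (log2 fold change -0.67 ± 0.18, SE, n = 3 per group, edgeR adjusted p = 0.0422). Mrpl55 (chromosome 11, 59202486 to 59206134) measured 22.5, 24.2 and 23.8 CPM in control and 16.6, 13.8 and 15.9 CPM in cachectic mice. Its values were close within each group and did not overlap between them (-0.61 ± 0.14, SE, n = 3 per group, edgeR adjusted p = 0.0238).

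The small subunit had 26 members, all tested, of which 2 rose, 2 fell and 22 did not pass. The share that passed was 15.4%, against 17.6% of all tested genes, and the median log2 fold change was -0.01. Mrps5 (chromosome 2, 127587222 to 127606829), whose bacterial counterpart lies near the mRNA entry of the small subunit, measured 30.1, 32.0 and 28.4 CPM in control and 50.2, 41.2 and 38.5 CPM in cachectic mice. Cachectic replicate 1 stood highest and no values overlapped (log2 fold change 0.52 ± 0.14, SE, n = 3 per group, edgeR adjusted p = 0.0407). Mrps35 (chromosome 6, 147042764 to 147073991), a protein of mitochondrial ribosomes with no bacterial counterpart, measured 31.1, 28.1 and 29.3 CPM in control and 44.0, 41.5 and 37.0 CPM in cachectic mice. All cachectic mice were higher (0.47 ± 0.13, SE, n = 3 per group, edgeR adjusted p = 0.0393).

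The members with the lowest log2 fold changes were also of the small subunit. Mrps18b (chromosome 17, 35910379 to 35916389) measured 19.3, 18.9 and 15.1 CPM in control and 9.27, 9.27 and 10.5 CPM in cachectic mice. Its cachectic values were nearly alike and all below the lowest control (log2 fold change -0.88 ± 0.17, SE, n = 3 per group, edgeR adjusted p = 0.0142). An antisense gene, Gm16279, shares 30.5% of the exonic bases of Mrps18b, so this value is uncertain in the way given for Mrpl9. Mrps22 (chromosome 9, 98588730 to 98601660), a mitochondria-specific protein, shares no exonic base with another gene. It measured 23.5, 30.9 and 28.4 CPM in control and 14.5, 14.2 and 17.2 CPM in cachectic mice. Every cachectic mouse was below every control mouse (-0.85 ± 0.16, SE, n = 3 per group, edgeR adjusted p = 0.0129).

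**Figure D2:**
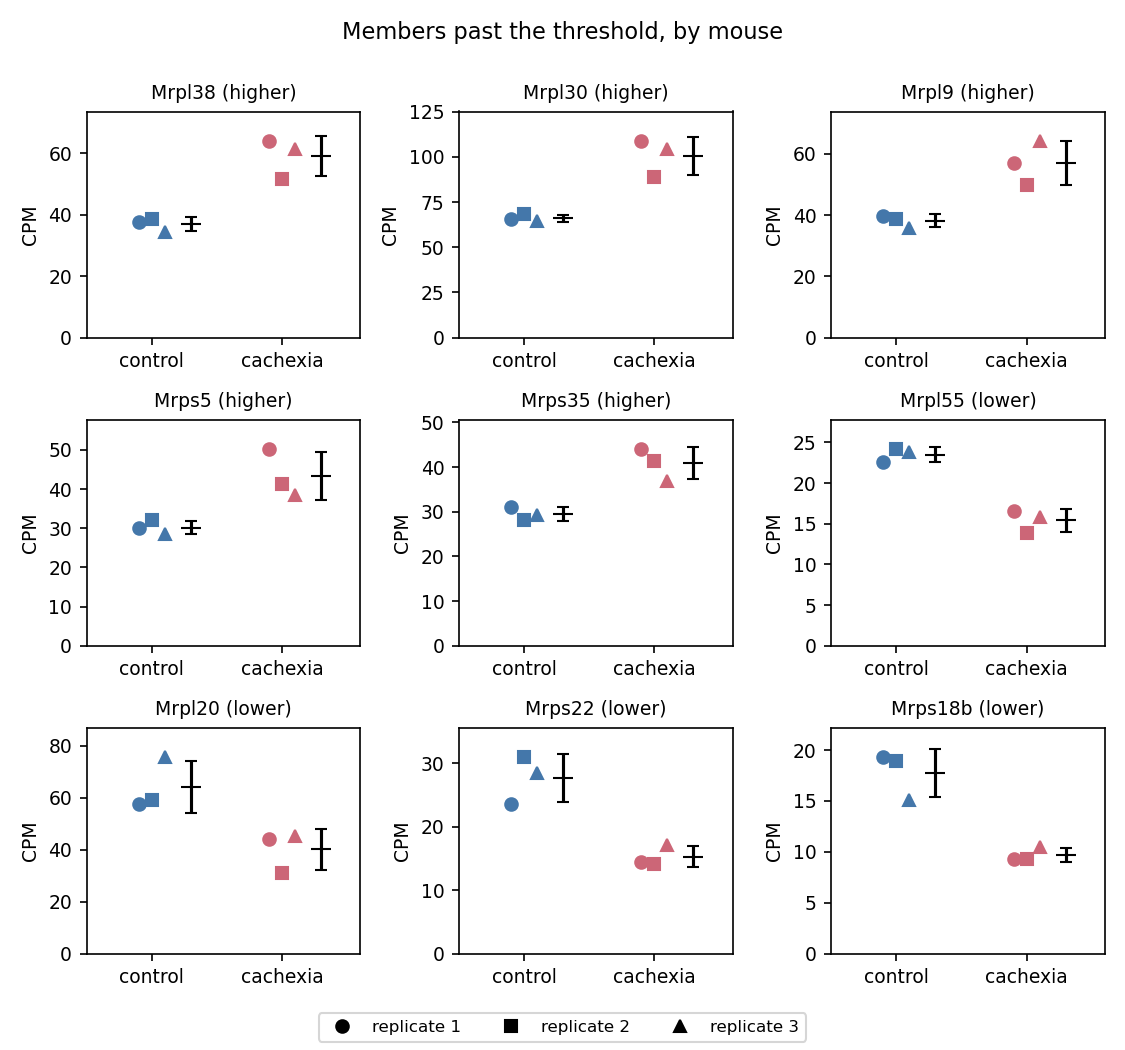
CPM of the 9 members past the threshold in each mouse, from 0, with the replicates as symbols and the mean ± SD of each group (n = 3) in black. The groups are apart in all 9 panels, as in Mrps22 with 23.5 to 30.9 CPM in control and 14.2 to 17.2 CPM in cachectic mice.

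The calls rested on few mice. Without control replicate 2, Mrpl38 alone passed the threshold, and without control replicate 3, Mrps18b alone did. Over all tested genes the share that passed was then 7.92% and 5.02%. Without cachexia replicate 1, Mrpl38, Mrps18b, Mrps22 and Mrpl55 passed (12.1% of all tested genes). Without control replicate 1, 3 members rose and 3 fell (13.4%), and without cachexia replicate 2, 6 rose and 2 fell (12.2%). Each of the 9 members kept its direction under all 18 alternative settings. Mrpl38 and Mrps18b passed in 17 of them and Mrps22 in 16, whereas Mrps35 passed in 9 and Mrps5 in 8.

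Members rose and fell both among proteins counted as having a bacterial counterpart and among those counted as found in mitochondria alone. Of 46 members with a counterpart, 3 rose and 2 fell (10.9%, against 17.6% of all tested genes), with a median log2 fold change of -0.02. Of 30 tested members of the other kind, 2 rose and 2 fell (13.3%), with a median of -0.05. The groups of mice did not overlap in 17 of the 46 (37.0%) and in 18 of the 30 (60.0%), against 40.5% of all tested genes. The difference between the kinds was not tested. Mrps36, a protein now assigned to the 2-oxoglutarate dehydrogenase complex and counted with neither subunit, was named after its value was seen. It measured 13.5, 14.7 and 15.4 CPM in control and 17.5, 11.7 and 12.9 CPM in cachectic mice. Its groups overlapped (log2 fold change -0.05 ± 0.19, SE, n = 3 per group, edgeR adjusted p = 0.882).

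Mammals carry 3 relatives of the bacterial S18 protein, and their transcripts gave 3 different values. In the counts by kind above, Mrps18c stands with the members that have a bacterial counterpart. Mrps18a and Mrps18b were counted with the other kind although they are relatives of S18, so those counts depend on this placement. Mrps18b of the small subunit fell, as described. Mrps18a, placed in the large subunit, measured 32.9, 39.7 and 35.2 CPM in control and 48.2, 66.0 and 43.1 CPM in cachectic mice. Its groups did not overlap, with cachectic replicate 2 highest, but it did not pass (log2 fold change 0.55 ± 0.18, SE, n = 3 per group, edgeR adjusted p = 0.0725). Mrps18c, the small-subunit form closest to the bacterial protein, was named after its value was seen. It overlapped between groups, at 12.4 to 12.7 CPM in control and 10.01 to 13.3 CPM in cachectic mice (log2 fold change -0.15). Mrps30, the other member placed in the large subunit despite its name, measured 28.5, 31.9 and 28.3 CPM in control and 33.4, 33.5 and 40.1 CPM in cachectic mice. All of its cachectic values were higher, and the difference did not pass (0.27 ± 0.13, SE, n = 3 per group, edgeR adjusted p = 0.198).

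A further 11 members had an unadjusted p-value under 0.05 without passing after adjustment (14.3% of members, against 16.7% of all tested genes). Those of them named here, apart from Mrps18a and Mrpl19, were chosen after their values were seen. On the higher side were Mrpl15 (log2 fold change 0.48, edgeR adjusted p = 0.0580), Mrpl45 (0.52, 0.0596), Mrpl41 (0.64, 0.0780) and Mrps9 (0.40, 0.0897), beside Mrps18a. Mrpl41 was uneven among cachectic mice, at 34.3, 33.0 and 54.4 CPM, against 27.1, 22.5 and 28.4 CPM in control mice. On the lower side were Mrps11 (-0.48), Mrpl40 (-0.48), Mrpl19 (-0.43), Mrpl57 (-0.43), Mrpl48 (-0.38) and Mrpl58 (-0.32), with adjusted p-values of 0.0864 to 0.141 by edgeR. Mrpl58 is a peptidyl-tRNA hydrolase that serves as a subunit of the ribosome. DESeq2, in place of edgeR, called 13 members, with Mrpl15, Mrpl41, Mrpl45 and Mrps18a added to the 5 that rose and the same 4 lower. It called 24.4% of all genes it tested.

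Levels of different genes were compared in FPKM, the authors' values per kilobase of gene and per 1000000 reads. In the small subunit the mean over all mice was highest for Mrps21, at 54.6 FPKM (47.3 to 57.8 in control and 47.6 to 65.6 in cachectic mice). It was lowest for Mrps25, at 2.78 FPKM (2.82 to 3.49 and 2.42 to 2.63). Neither passed the threshold (log2 fold change 0.21 for Mrps21 and -0.27 for Mrps25), and 69.8% of the exonic bases of Mrps25 are shared with Nr2c2. In the large subunit the highest level was that of Mrpl34, at 39.5 FPKM (38.1 to 39.5 and 36.3 to 43.2), whose groups overlapped. The lowest level above 0 was that of Mrpl19, at 2.66 FPKM (2.89 to 3.25 and 1.94 to 2.50). Mrpl53 had no count in any of the 6 libraries, and 88.0% of its exonic bases are shared with Gm42688 and Ccdc142os. The length used is that of all exons of a gene joined. For Mrpl33, named for its length, this is 7326 bases while its longest coding transcript has 478, so the FPKM of such a member is lower than its level per transcript length.

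The level of the family in single mice depended on the scaling. With TMM normalization the summed CPM of the members was 2546, 2539 and 2577 in the control replicates. In the cachectic replicates it was 2719, 2331 and 2744, so that the cachectic mice lay both above and below the control mice. As a plain share of the library's counts the members made up 0.270%, 0.240% and 0.241% in control and 0.270%, 0.242% and 0.280% in cachectic mice. On this scale control replicates 2 and 3 were lowest, and cachexia replicates 1 and 2 lay within the control range. With TMM, cachexia replicate 2 had the lowest CPM of the 6 mice in 40 of 77 members (51.9%), against 18.4% of all tested genes. By library totals it was the lowest in 28 members (36.4%), against 15.4%. Cachexia replicate 3 was highest for 28 members with TMM and 32 by library totals. The cause of these differences between mice was not tested.

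**Figure D3:**
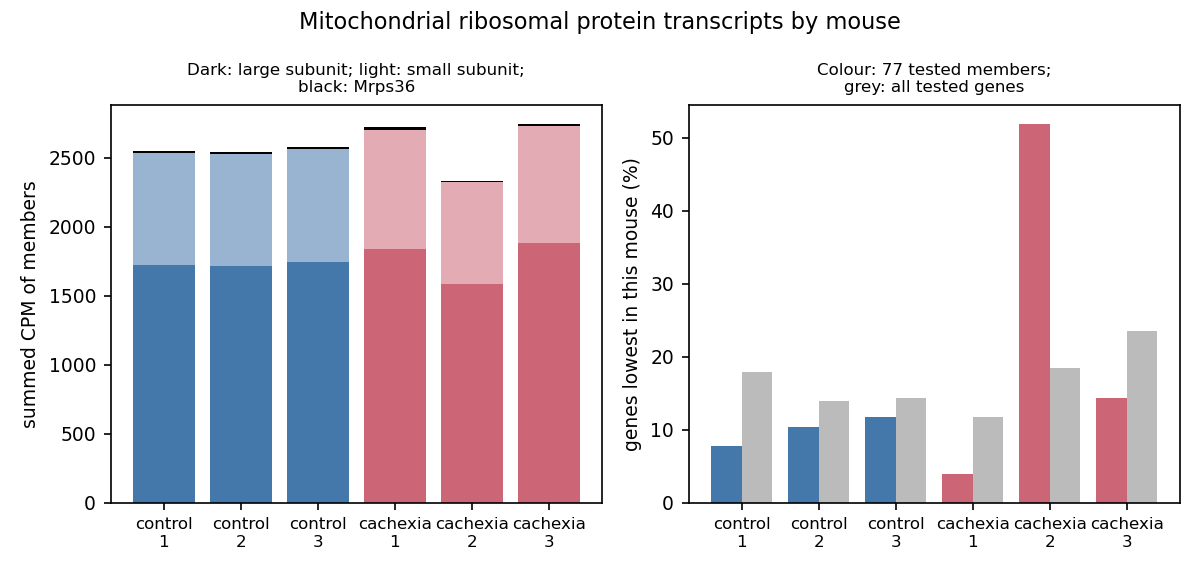
Left, summed TMM-normalized CPM of the members in each mouse, stacked by subunit. Right, the share of genes with their lowest CPM in that mouse, for 77 members in colour and all tested genes in grey; with this scaling cachexia replicate 2 has the lowest sum (2331 CPM) and the lowest value of 51.9% of members, whereas by library totals control replicates 2 and 3 have lower sums and the share is 36.4%.

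Both subunits followed the family. With TMM the large subunit summed to 1724, 1718 and 1746 CPM in control and 1840, 1584 and 1880 CPM in cachectic mice. The small subunit summed to 809, 807 and 815 CPM and to 861, 736 and 851 CPM. In both, cachexia replicate 2 was lowest with TMM, but by library totals control replicate 2 was lowest (0.162% of counts for the large and 0.0762% for the small subunit, against 0.164% and 0.0763% in cachexia replicate 2). The median coefficient of variation of a member was 6.75% among control and 13.3% among cachectic mice, and it was larger among cachectic mice in 62 of 77 members (80.5%). Over 15998 tested genes with counts in both groups it was 14.2% and 19.2%, and it was larger among cachectic mice in 61.9%. By library totals the members' medians were 8.72% and 12.2%, and it was larger among cachectic mice in 47 of 77. On that scale the medians over all tested genes were 15.3% and 19.3%, and it was larger among cachectic mice in 9473 of 15998.

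Single cachectic mice also stood away from the others in some members, all named after their values were seen. Mrps34 measured 12.3 CPM in cachexia replicate 3 and 22.4 to 29.9 CPM in the other 5 mice, with 77.8% of its exonic bases shared with Mapk8ip3 and Nme3. Mrpl12, which also binds the mitochondrial RNA polymerase, measured 18.9 CPM in the same mouse and 27.7 to 33.0 CPM in the others. Mrps6 was highest in that mouse, at 54.2 CPM, and lowest in cachexia replicate 2, at 26.3 CPM.

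Set beside other gene groups, the family lay near the centre of all tested genes. Of 82 tested ribosomal proteins of the cytosolic ribosome, 51 rose and none fell by edgeR with Benjamini-Hochberg adjustment (67 had an unadjusted p under 0.05). The share that passed was 62.2%, against 17.6% of all tested genes, and the median log2 fold change was 0.69. Without control replicate 2 or control replicate 3 the number that rose was 11 and 4, without cachexia replicate 1 it was 25, and the median was 0.62, 0.65 and 0.69. Their summed CPM was 17718 to 22340 in control and 30535 to 31466 in cachectic mice, with cachexia replicate 2 the highest of the 6. Of 83 tested nuclear-encoded OXPHOS subunits, 7 rose and 2 fell (10.8%), with a median of 0.05. Their summed CPM overlapped between groups (11206 to 12497 against 11150 to 13998). None of the OXPHOS subunits rose without control replicate 2 or control replicate 3. These counts stand side by side, and no difference between the groups of genes was tested.

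**Figure D4:**
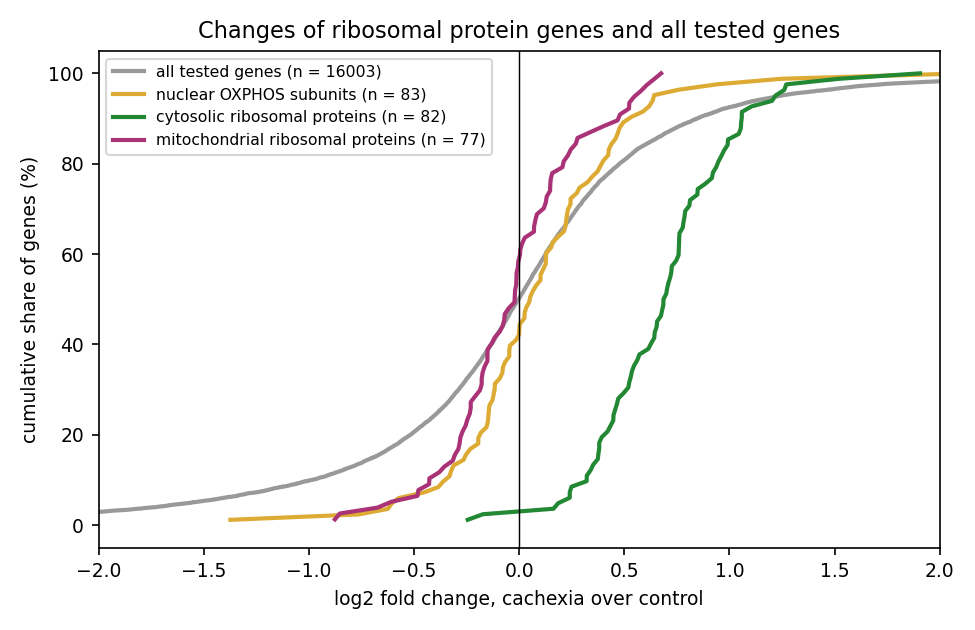
Cumulative share of genes against the log2 fold change of cachectic over control mice, for the 77 members, 82 cytosolic ribosomal proteins, 83 nuclear-encoded OXPHOS subunits and all 16003 tested genes, with the axis limited to log2 fold changes from -2 to 2. The curve of the members is steep around 0 (median -0.02), while that of the cytosolic ribosomal proteins is centred on 0.69.

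Proteins of the mitochondrial ribosome that carry other names did not pass either. These are Dap3 (log2 fold change 0.05), a GTP-binding small-subunit protein, Ptcd3 (-0.05), Aurkaip1 (0.14) and Chchd1 (0.20) of the small subunit, and Gadd45gip1 (-0.15) of the large subunit. By edgeR with Benjamini-Hochberg adjustment 0 of the 5 passed, where 17.6% of all tested genes did. Of the 5, 0 had an unadjusted p under 0.05, and the edgeR adjusted p-values were 0.295 to 0.823. Dap3 measured 54.0, 51.7 and 52.4 CPM in control and 57.1, 51.4 and 55.1 CPM in cachectic mice.

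Factors that assemble the mitochondrial ribosome and modify its RNA passed the threshold at close to the share of all tested genes. Of 28 such genes 4 rose and 1 fell (17.9%, against 17.6% of all tested genes), with a median log2 fold change of 0.23. C1qbp, an RNA-binding matrix protein needed for mitochondrial translation, measured 54.6, 59.4 and 53.7 CPM in control and 121, 109.7 and 107 CPM in cachectic mice. Every cachectic mouse was far above the controls (1.01 ± 0.12, SE, n = 3 per group, edgeR adjusted p = 0.00292). Rpusd4, a pseudouridine synthase (0.68), Mtg2, a GTPase of large-subunit assembly (0.64), and Ngrn, a partner of Rpusd4 (0.57), also rose, with edgeR adjusted p-values of 0.0208 to 0.0484. Trub2, another mitochondrial pseudouridine synthase, measured 41.4, 50.5 and 55.1 CPM in control and 23.4, 16.2 and 23.0 CPM in cachectic mice. It was lower in every cachectic mouse (-1.23 ± 0.19, SE, n = 3 per group, edgeR adjusted p = 0.00613). C1qbp and Trub2 passed in all 18 alternative settings, and they were the members of this list that passed without control replicate 2, without control replicate 3 or without cachexia replicate 1. Rpusd4 passed in 15 settings, Ngrn in 13 and Mtg2 in 4, with no pass of Mtg2 when any 1 mouse was left out.

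Among 18 mitochondrial translation factors and helpers, none rose and 2 fell by edgeR (11.1%, against 17.6% of all tested genes). Both are subunits of the amidotransferase that completes the charging of glutamine tRNA, Qrsl1 (12.3, 10.03 and 11.8 CPM in control and 6.36, 7.19 and 5.31 CPM in cachectic mice, log2 fold change -0.85) and Gatb (-0.56). Their groups did not overlap. Of 17 mitochondrial aminoacyl-tRNA synthetases, 1 fell (5.88%) and 16 did not pass. The 1 that fell was Sars2, which charges serine tRNA (12.0, 10.9 and 10.6 CPM in control and 6.30, 5.96 and 6.95 CPM in cachectic mice, -0.80). Of 12 genes for the replication and transcription of mitochondrial DNA, 2 rose (16.7%) and none fell. These were Polg, the catalytic subunit of the mitochondrial DNA polymerase (0.53), and Tfb2m, which opens mitochondrial promoters (0.63). The median log2 fold change of the 12 was 0.42, and the groups did not overlap in 10 (83.3%, against 40.5% of all tested genes). Their summed CPM was 233 to 244 in control and 287 to 292 in cachectic mice. Tfam, which packages mitochondrial DNA, had a log2 fold change of -0.24 and did not pass. Without control replicate 3 none of Qrsl1, Gatb, Sars2, Polg and Tfb2m passed (edgeR adjusted p = 0.0902 to 0.116), nor did they without control replicate 2 (0.058 to 0.0858).

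The regulators known for driving mitochondrial biogenesis and nuclear respiratory genes did not pass the threshold. By edgeR 0 of 9 passed after adjustment, where 17.6% of all tested genes did. Ppargc1a, the coactivator PGC-1α, measured 7.07, 12.4 and 13.0 CPM in control and 8.22, 8.78 and 5.11 CPM in cachectic mice. Its groups overlapped (log2 fold change -0.55 ± 0.31, SE, n = 3 per group, edgeR adjusted p = 0.252). The values were 0.26 for Ppargc1b, -0.12 for Pprc1, -0.10 for Nrf1, 0.25 for Gabpa, -0.05 for Esrra and 0.57 for Myc. The groups did not overlap in 2 of the 9 (22.2%, against 40.5% of all tested genes), and Gabpa was 1 of the 2. The sign of the values for Ppargc1b, Pprc1, Nrf1 and Esrra turned under at least 1 alternative setting.

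The mRNAs that the mitochondrial ribosome translates were measured in the same libraries. Of the 13 encoded by mitochondrial DNA, 12 were tested, none rose and 2 fell (16.7%, against 17.6% of all tested genes). All 12 log2 fold changes were negative, with a median of -0.69. Their summed CPM was 32539, 55835 and 49106 in control and 36134, 27353 and 34326 in cachectic mice. Control replicate 1 was thus below cachexia replicates 1 and 3, and the groups did not overlap in 3 of the 12. The mRNA of mt-Nd1, a complex I subunit, measured 4375, 6429 and 6045 CPM in control and 2197, 2215 and 2214 CPM in cachectic mice. The cachectic values were almost equal and all lower (-1.35 ± 0.24, SE, n = 3 per group, edgeR adjusted p = 0.0102). The mRNA of mt-Nd2, also of complex I, was lower in every cachectic mouse, with 2589, 4660 and 4355 CPM in control and 1987, 1683 and 1852 CPM in cachectic mice (-1.07 ± 0.27, SE, n = 3 per group, edgeR adjusted p = 0.0335). Without control replicate 3 neither passed (edgeR adjusted p = 0.0567 for mt-Nd1 and 0.126 for mt-Nd2), and mt-Nd2 did not pass when any of control replicate 2 and the 3 cachectic mice was left out. Of the 18 alternative settings, mt-Nd1 passed in 15 and mt-Nd2 in 9. The other 10 lay between -1.31 (mt-Nd4l) and -0.21 (mt-Cytb) and did not pass. The mitochondrial ribosomal RNAs mt-Rnr1 (-0.24) and mt-Rnr2 (-1.24) did not pass. Their summed CPM was 611 to 748 in control and 179 to 741 in cachectic mice, far below that of the mitochondrial mRNAs. How fully these libraries captured the ribosomal RNAs was not tested, so the values may not measure their level. Nuclear copies of mitochondrial sequence can share reads with these genes, so their levels are uncertain, above all for mt-Atp6, mt-Co2 and mt-Co3.

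**Figure D5:**
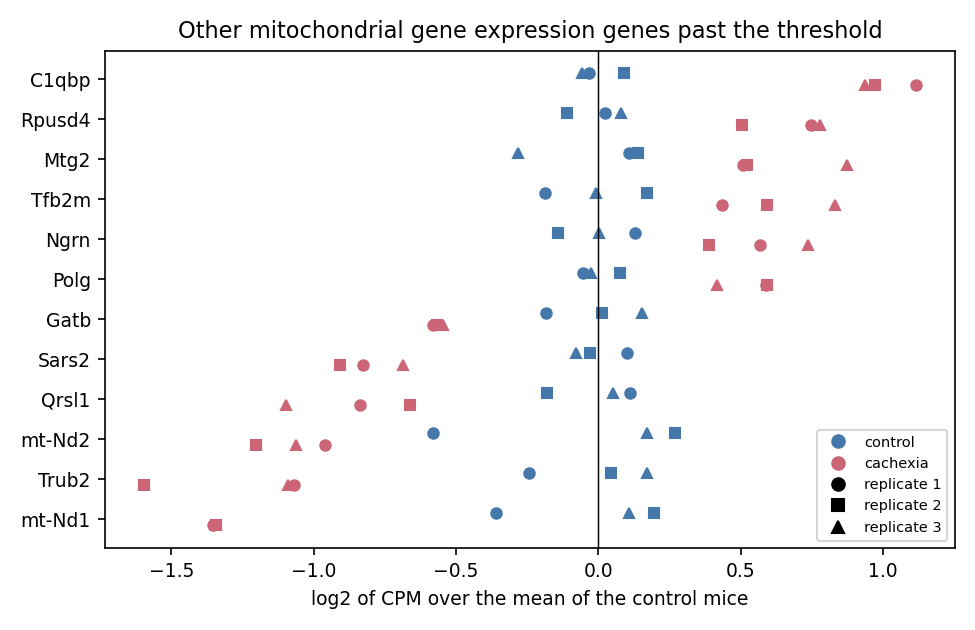
Log2 of the CPM over the mean of the control mice, for each mouse, in the 12 genes past the threshold among the lists of ribosome assembly, mitochondrial translation, aminoacylation, mitochondrial DNA expression and mitochondrial mRNAs. Circles, squares and triangles are replicates 1, 2 and 3, and no control and cachectic values overlap, from C1qbp (1.01) to mt-Nd1 (-1.35).

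Many members lie head to head with another gene. The count was 26 members with a gene on the other strand whose start lay at most 1000 bases upstream of the member's start or overlapped it by at most 500. Of these neighbours 24 were tested, 1 rose and 1 fell, where 17.6% of all tested genes passed the threshold in either direction. The neighbours include the members Mrpl46 and Mrps11, each counted as the neighbour of the other. The members and neighbours named in the rest of this account were chosen after their values were seen, apart from those already named. Mrpl30, which rose, starts 66 bases from Mitd1 (log2 fold change 0.61 against -0.04). Mrps18b, which fell, starts 45 bases from Ppp1r10 (-0.88 against 0.24), and Mrps5 starts 128 bases from Zfp661 (0.52 against 0.38). None of these 3 neighbours passed.

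The neighbours that passed lay beside members that did not. Sars2 (-0.80) starts 172 bases from Mrps12 (-0.15), the counterpart of a bacterial protein at the decoding site. Mrps12 measured 24.9, 21.4 and 23.9 CPM in control and 21.4, 15.7 and 26.2 CPM in cachectic mice, and its groups overlapped. Pnpla7, a lysophospholipase, rose (2.45, edgeR adjusted p = 0.00355) and starts 935 bases from Mrpl41 (0.64). Mrpl46 and Mrps11, members of different subunits, overlap by 412 bases at their starts and share 173 exonic bases, and their log2 fold changes were -0.19 and -0.48. The members lie on 17 chromosomes, with 11 on chromosome 11, 8 on chromosome 17 and 7 on chromosome 6.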

How the data were processed

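RNA-seq of eWAT from 3 cachectic and 3 control mice was analyzed. The authors filtered reads for quality and adapters, aligned them with Hisat2 and obtained counts per gene from featureCounts 1.5.0-p3. They deposited these raw counts without normalization. The authors derived the deposited FPKM values from these counts and gene lengths. The authors' table of differential genes holds DESeq2 1.16.1 fold changes and p-values. It was not used, nor were its 6 columns of per-sample values. The submitters' notes name mm9, but 98.3% of the genes found in GENCODE M21 have their GRCm38 coordinates there, and coordinates are given as deposited.

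Genes were kept by filterByExpr and scaled by TMM (factors of 0.937 to 1.07). The quasi-likelihood test of edgeR 4.0.16 in R 4.3.3 was run without covariates, and its p-values were adjusted by Benjamini-Hochberg over all 16003 genes, with a threshold of 0.05. The SE was obtained as the absolute log2 fold change over the root of F. With 3 mice per group the smallest p-value of an exact two-sided permutation test is 0.1, and none is given. Total counts of 14928766 to 18855546 per mouse set the counting precision.

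Members and lists were chosen with earlier results of these data known. The members named are up to 10 per direction past the threshold, the highest and lowest by FPKM in each subunit, and Mrps30 and Mrps18a. Other genes named are the 5 ribosomal proteins with other names, up to 4 per direction past the threshold in each related list, 8 regulators, mitochondrial mRNAs and cell markers. Alternatives were other scalings (RLE, library totals), filters (none, or at least 10 counts in every sample), tests (DESeq2 1.42.0, limma-voom, limma 3.58.1 on log2 FPKM, adding 1 or 0.1), only protein-coding genes, a loess offset for gene length, a replicate block, both together, and each mouse left out. Scripts were tested on simulated data. No pair of libraries was near-identical.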

Additional observations from a re-analysis of the deposited data

How the results depend on the processing

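Across the 18 alternatives the median log2 fold change of the members ran from -0.0934 to 0.0573, against -0.02 with all mice, so its sign turned in some. Each was within 0.0905 of the value with all mice, the SD between mice of a group. That SD came mostly from cachexia replicate 2, where the members had a median log2 deviation of -0.167, against 0.0288 to 0.0562 in the other mice. It is thus not a yardstick independent of that mouse. No called member changed direction. The number of members that rose was 3 without a filter on low counts, 2 with the replicate block, 9 with DESeq2 and 3 with limma on log2 FPKM at either pseudocount, against 5. In the same order, 8.98%, 11.8%, 24.4%, 16.6% (adding 1) and 17.1% (adding 0.1) of all tested genes passed in either direction, against 17.6%. With 1 mouse left out the number of members that rose was 0 to 6, and the number that fell was 0 to 3, against 4. Over all genes, 913 rose with the replicate block and 914 fell with the offset for gene length and the replicate block, against 1440 and 1381, and with 1 mouse left out 382 to 1197 rose and 446 to 1142 fell. The low ends came without control replicate 2 or control replicate 3. Of all pairs of libraries, these 2 had the most similar counts (chi-square per degree of freedom 13). Control replicate 1 stood further off, at 60.7 from control replicate 2 and 48.35 from control replicate 3. Why control replicates 2 and 3 mattered most was not tested. Replicate numbers belong to different mice, and same-numbered mice did not deviate together (correlations of -0.00314, -0.0113 and 0.00849), so the numbers do not pair them. Under the replicate block Mrpl38, Mrpl30, Mrps18b, Mrps22 and Mrpl20 passed.

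The sign turned in some genes with small values, none of them past the threshold in these cases. The range with 1 mouse left out is given for each. Ptcd3 was at 0.00348 with library totals, 0.0336 with the offset for gene length, 0.0361 with that offset and the replicate block and from -0.135 to 0.0380, with 0.00903 without control replicate 2 and the highest without cachexia replicate 3. Esrra was at 0.00207 with library totals and ran from -0.371 to 0.240 without cachexia replicate 3. Nrf1 was at 0.0172 and Mrpl34 at -0.0966 with the offset, and at 0.00153 and -0.108 with the offset and the replicate block. With 1 mouse left out, Mrps12 ran from -0.331 to 0.0262, Mrps36 from -0.241 to 0.0676 (0.0139 without cachexia replicate 3), Ppargc1b from -0.210 to 0.637 and Pprc1 from -0.366 to 0.0617, and each turned without cachexia replicate 2. With a biological coefficient of variation of 0.264 and 3 mice in each group, small changes of a single member may not be detectable, and the calls of Mrps5 and Mrps35 held in the fewest settings (8 and 9 of 18).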
